A study of Homo sapiens with 7 samples.

Results

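Hub anchors are the stretches of chromatin that take part in an unusually large number of loops. They were studied in 3 lists of H3K27ac HiChIP loops, 1 for each of 3 human cancer cell lines. HiChIP joins DNA ends that lie close together in the nucleus and then pulls down the joined fragments with an antibody, here against acetylation of lysine 27 of histone H3. A loop is a pair of anchors with the number of sequenced read pairs that join them, and the partners of an anchor are the different anchors of the same chromosome to which it is joined. Hubs were chosen by their measured partner numbers, with 20 or more partners as the rule, after the read pairs of repeated Ishikawa rows had been added up and pairs of an anchor with itself left out. Of 155056 anchors in the 3 lists, 3340 met the rule. Because partner numbers chose the hubs, they and the read pairs behind them are given as a description with no test.

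The Ishikawa list (endometrial adenocarcinoma) combined 4 samples, 2 treated with the vehicle DMSO and 2 with 10 nM 17β-estradiol (E2) for 1 h. The T-47D list (breast carcinoma) came from 1 sample and the LNCaP list (prostate carcinoma) combined 2, and for these lines the labels state no treatment. DpnII cut the Ishikawa chromatin and MboI that of T-47D and LNCaP, both at GATC, and sonication, read length and depth followed the same division, so none of these can be separated from the cell line where Ishikawa is compared. Each line is a single established line grown in culture and each list is pooled, so no replicate error exists, and the intervals given for shares are 95% Wilson intervals that cover counting error only. A list also sums over many cells, so that a contact made in fewer cells and a contact made less often per cell cannot be told apart.

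H3K27ac marks active promoters and active enhancers, the distal elements that raise transcription of genes on the same chromosome. Enhancers and promoters meet through looping, and neighbouring enhancers of strongly expressed cell identity genes are often crowded into long acetylated stretches called super-enhancers. Such stretches are known for contacting each other as well as their target promoters.

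The sequences of a few hubs show the kind of DNA involved. For a locus that was a hub in all 3 lists, the 200 bases upstream of the start site of ESYT1, an extended synaptotagmin that tethers the endoplasmic reticulum to the plasma membrane, lie in the stretch common to the hubs and hold no annotated exon. They are given from GRCh37 (hg19), at chr12:56511834-56512033 on the + strand, with CG dinucleotides in capitals, as an example of a promoter at which the hubs of all lists overlap.
ESYT1 promoter: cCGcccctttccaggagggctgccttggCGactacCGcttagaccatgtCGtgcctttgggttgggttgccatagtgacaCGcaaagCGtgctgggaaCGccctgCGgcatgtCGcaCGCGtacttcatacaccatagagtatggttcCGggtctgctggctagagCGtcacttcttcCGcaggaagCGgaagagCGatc
They hold 16 CG dinucleotides. Over 146580 start sites of protein-coding genes the median was 8, with quartiles of 2 and 19.

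Further stretches come from the hub with the most partners in each list, which holds a promoter in Ishikawa but not in T-47D or LNCaP. Others come from 2 intergenic hubs near TBL1XR1 that all 3 lists share. Here and below, intergenic and intronic refer to protein-coding genes alone. Genes of long non-coding RNAs (lncRNAs) can therefore lie in an intergenic hub. From each, 200 bases of the + strand outside annotated exons are given, at chr3:168978932-168979131 (in MECOM, Ishikawa), chr16:85505491-85505690 (in GSE1, T-47D), chr3:175196524-175196723 (in NAALADL2, LNCaP), chr3:177075367-177075566 and chr3:177313360-177313559 (both near TBL1XR1). Capitals mark matches on either strand to the forkhead motif TGTTTAC, the AP-1 motif TGANTCA, the GATA motif AGATAA and, in the GSE1 stretch, also the 12-base CTCF core. The windows were picked for holding the most kinds of match, so their matches are a description.
MECOM stretch: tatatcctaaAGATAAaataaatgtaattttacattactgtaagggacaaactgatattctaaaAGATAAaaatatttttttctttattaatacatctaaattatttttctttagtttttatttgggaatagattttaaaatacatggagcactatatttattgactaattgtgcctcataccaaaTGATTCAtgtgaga
GSE1 stretch: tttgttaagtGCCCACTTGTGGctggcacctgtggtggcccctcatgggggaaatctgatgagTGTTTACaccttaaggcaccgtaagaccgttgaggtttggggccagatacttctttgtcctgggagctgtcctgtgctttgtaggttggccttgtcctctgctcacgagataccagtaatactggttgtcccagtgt
NAALADL2 stretch: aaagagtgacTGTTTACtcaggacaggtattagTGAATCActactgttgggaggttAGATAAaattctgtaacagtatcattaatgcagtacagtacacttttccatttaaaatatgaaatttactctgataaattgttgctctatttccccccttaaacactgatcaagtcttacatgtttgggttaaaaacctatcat
TBL1XR1 nearer stretch: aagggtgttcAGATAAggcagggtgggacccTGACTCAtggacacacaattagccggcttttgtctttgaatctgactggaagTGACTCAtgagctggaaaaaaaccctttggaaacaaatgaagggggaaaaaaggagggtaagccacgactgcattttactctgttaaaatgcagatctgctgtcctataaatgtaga
TBL1XR1 farther stretch: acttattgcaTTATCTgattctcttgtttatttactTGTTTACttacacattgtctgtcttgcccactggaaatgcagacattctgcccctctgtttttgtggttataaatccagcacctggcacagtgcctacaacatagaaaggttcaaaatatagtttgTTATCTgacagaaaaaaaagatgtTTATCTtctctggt
The MECOM stretch has 1 AP-1 and 2 GATA matches, and the NAALADL2 stretch has 1 forkhead, 1 AP-1 and 1 GATA match. The nearer TBL1XR1 stretch has 2 AP-1 matches and 1 GATA match, while the farther has 3 GATA matches and 1 forkhead match. Hubs held forkhead, AP-1 and GATA matches about as often as all anchors did. Of all 200-base windows in hubs, 2.64% of those of Ishikawa, 2.88% of T-47D and 3.39% of LNCaP held the forkhead motif, against 3.01%, 2.84% and 3.73% of the windows of all anchors. For AP-1 the shares were 5.84%, 4.98% and 5.96% in hubs and 6.24%, 5.18% and 6.05% in all anchors. For GATA they were 12.4%, 9.10% and 13.0% in hubs and 13.7%, 9.59% and 13.3% in all anchors. For the ETS motif CCGGAAG, common in housekeeping promoters, they were 0.813%, 2.19% and 1.15% in hubs and 0.615%, 2.20% and 1.10% in all anchors. The CTCF core lay in 0.702%, 1.32% and 0.722% of hub windows and in 0.570%, 1.14% and 0.722% of all.

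The Ishikawa list held 163530 loops with 1040329 read pairs, T-47D 42027 loops with 351260 read pairs, and LNCaP 149226 loops with 1805322 read pairs. Ishikawa had 554 hubs among 92121 anchors (0.601%), T-47D 278 among 19386 (1.43%) and LNCaP 2508 among 43549 (5.76%). Most hubs lay close to the threshold. In Ishikawa 325 hubs had 20 to 24 partners and 90 had 30 or more, in T-47D 167 and 38, and in LNCaP 1214 and 741. Only 6 Ishikawa hubs, 1 T-47D hub and 100 LNCaP hubs had 50 or more. Anchors just outside the rule, with 19 partners, numbered 119, 51 and 358, and hubs just inside it, with 20, numbered 83, 43 and 330 (Ishikawa, T-47D, LNCaP). Their median read pairs were alike in Ishikawa (170 at 19 partners and 171 at 20) and LNCaP (222.5 and 233), and stood at 184 and 223 in T-47D. The order of the lists in hub number was that of the read pairs in their loops. When the read pairs of Ishikawa and LNCaP were thinned at random to the total of T-47D and loops then under 3 read pairs were dropped, 19 Ishikawa and 160 LNCaP anchors met the rule. The second removal of weak loops left these lists with 224661 and 254613 read pairs against the 351260 of the untouched T-47D list, so they were shallower than T-47D with its 278 hubs and no order is read from the thinned numbers.

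**Figure D1:**
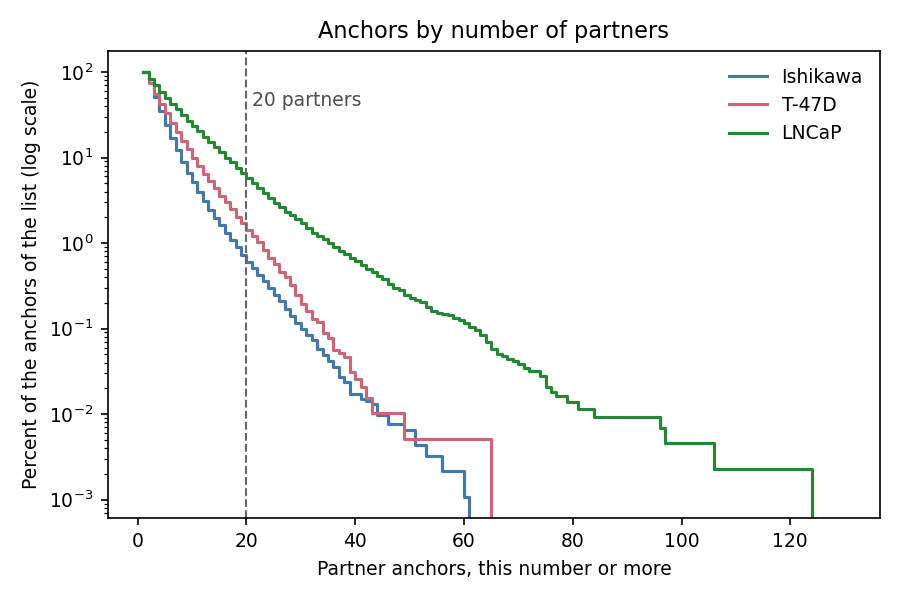
Percent of the anchors of each list (y axis, log scale) that had at least the number of partners on the x axis, 1 line per cell line, with a dashed line at 20 partners. At 20 partners the lines stand at 0.601% (Ishikawa), 1.43% (T-47D) and 5.76% (LNCaP), and LNCaP reaches farthest, to 123 partners.

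Hubs stood at one or both ends of 7.87% of Ishikawa, 13.8% of T-47D and 40.1% of LNCaP loops, and these loops carried 12.1%, 23.7% and 60.3% of the read pairs. The rule favours such loops, and in LNCaP hubs also covered 14.3% of all anchor bases, against 1.68% in Ishikawa and 2.46% in T-47D. Contacts of hubs were not all faint. Loops at the lowest deposited number, 3 read pairs, made up 34.3%, 21% and 19.7% of loops with a hub and 46.5%, 31.0% and 30.1% of loops without. Nearly all hubs had partners on both sides, which a rule of 20 or more partners makes likely. All partners lay on the same side for 0 of 554 Ishikawa hubs (the interval reaches 0.689%), 1 of 278 T-47D hubs and 8 of 2508 LNCaP hubs. Over all anchors the shares were 40.8%, 43.3% and 31.8%, but these include anchors with 1 partner, which have 1 side by definition.

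Hub partners lay farther away than those of other anchors. Between 200 and 500 kb lay 26.6%, 28.6% and 30.4% of hub partners (Ishikawa, T-47D, LNCaP), against 8.38%, 17.8% and 20.5% of the partners of other anchors. Within 20 kb the order turned, with 5.64%, 6.96% and 5.49% of hub partners against 32.3%, 16.5% and 15.8%. Distance is tied to partner number and so to the rule, and was given no test. The median over hubs of the median distance to a partner was 130 kb for the Ishikawa hubs, 163 kb for those of T-47D and 193 kb for those of LNCaP. The LNCaP list holds no loop over 2 Mb, whereas 49 Ishikawa and 64 T-47D loops with a hub were longer. An Ishikawa hub 20.6 kb from the start of AL021920.2 had the most read pairs of its list (1241, 31 partners) and a partner 217872 kb away, on the other side of chromosome 1. An Ishikawa hub near IRF2BP2 at chr1:234904575-234920859 had a median partner distance of 109050 kb.

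**Figure D2:**
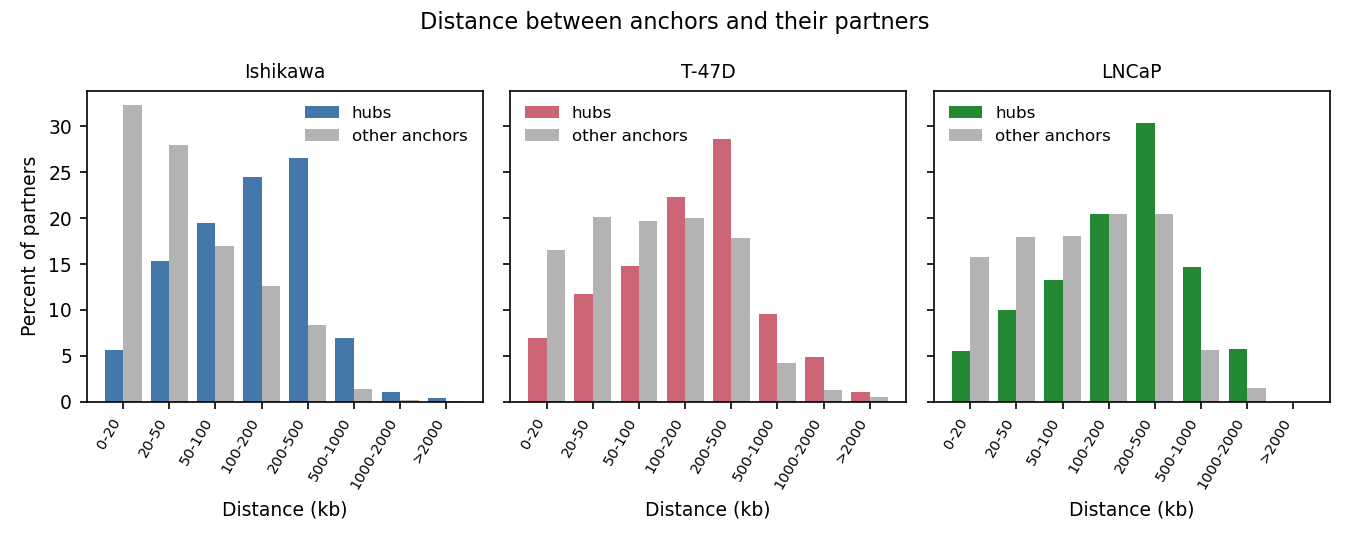
Percent of partners (y axis) by distance from the anchor in kb (x axis) for hubs (coloured bars) and other anchors (grey bars) of each list. Hub partners peak at 200 to 500 kb in all 3 lists, while the partners of other Ishikawa anchors are most frequent within 20 kb.

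Width went with partner number. Hubs were 15.6 kb wide at the median in Ishikawa (5.16 to 50.3 kb), 4.05 kb in T-47D (1.47 to 21.5 kb) and 8.02 kb in LNCaP (1.76 to 76.7 kb). Other anchors had medians of 5.09, 2.60 and 3.13 kb. Among the widest 1% of anchors, 243 of 922 were hubs in Ishikawa (26.4%), 45 of 194 in T-47D (23.2%) and 372 of 436 in LNCaP (85.3%). Among the narrowest 20% of anchors, hubs made up 0 of 18439 in Ishikawa, 0.309% of the T-47D and 0.0344% of the LNCaP anchors. Over all anchors, Spearman's rho between width and partners was 0.303 for 92121 Ishikawa anchors, 0.204 for 19386 T-47D anchors and 0.563 for 43549 LNCaP anchors. Within hubs it was 0.409, 0.290 and 0.464. These are descriptions across anchors, which share a library and overlapping neighbourhoods, and whether width by itself adds partners was not tested.

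**Figure D3:**
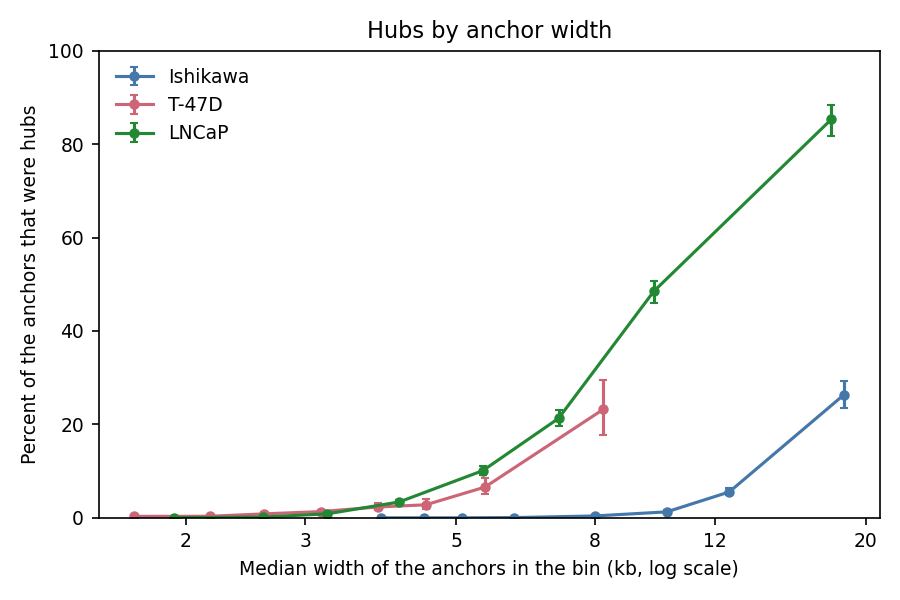
Percent of anchors that were hubs (y axis) against the median width of the anchors in 8 width bins per list (x axis, kb, log scale), with 95% Wilson intervals as bars. The share climbs with width in every list, to 26.4% (Ishikawa), 23.2% (T-47D) and 85.3% (LNCaP) in the widest 1% of anchors.

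The widest hubs were gene clusters in Ishikawa and LNCaP. The widest Ishikawa hub (50.3 kb, chr17:46647135-46697467) spanned the promoters of HOXB3 to HOXB8, homeobox genes that set position along the body axis, and had 24 partners. The widest of LNCaP (76.7 kb) spanned KLK15, KLK3, KLK2 and KLK4, genes of the kallikrein family of secreted proteases that includes prostate-specific antigen. It had 61 partners and 2936 read pairs, 51.4% of them in a single loop to an anchor at the SMIM47 promoter 73.0 kb away. The widest T-47D hub held the promoters of C1orf159 and RNF223 (21.5 kb, 20 partners). The narrowest hubs were 5.16 kb at the promoter of the carboxypeptidase gene CPM in Ishikawa, 1.47 kb in the intergenic region near LURAP1L in T-47D, and 1.76 kb in an intron of SHROOM3 in LNCaP.

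Promoters of protein-coding genes, taken as 500 bp centred on a start site, lay in 222 of 554 Ishikawa hubs (40.1%, 36.1 to 44.2), 158 of 278 T-47D hubs (56.8%, 51.0 to 62.5) and 1314 of 2508 LNCaP hubs (52.4%, 50.4 to 54.3). Over all anchors of the lists the shares were 16.6%, 49.1% and 29.4%. Much of the gap went with width. Other anchors weighted to the widths of the hubs held a promoter in 31.6%, 56.0% and 47% of cases, and the T-47D value lies within the interval of its hubs. In T-47D hubs did not stay above all anchors when weak loops were dropped. With at least 5 read pairs per loop 44.4% of 72 hubs (33.5 to 55.9) held a promoter. The share of all anchors, 52.4%, lies within that interval. After thinning, a promoter lay in 38.8% of 160 LNCaP hubs against 37.4% of all LNCaP anchors. In Ishikawa it lay in 57.9% of 19 hubs against 18.7%. Hubs outside promoters were mostly intergenic or intronic. In Ishikawa 35.2% of hubs were intergenic, 12.6% intronic and 12.1% over an exon without a promoter. In T-47D these shares were 30.9%, 9.71% and 2.52%, and in LNCaP 22.1%, 15.4% and 10.2%. Of all anchors 44.4%, 25.3% and 30.4% were intergenic and 24.3%, 17.8% and 27.7% intronic (Ishikawa, T-47D, LNCaP), so intergenic hubs were less frequent than intergenic anchors in Ishikawa and LNCaP and more frequent in T-47D. A lncRNA promoter without a protein-coding one lay in 9.57%, 6.12% and 5.06% of hubs, against 4.14%, 4.79% and 3.90% of all anchors. The base content of hubs was a little richer in G and C. Means were 44.5%, 51.7% and 45.0% in hubs and 42.7%, 49.8% and 43.7% in other anchors (Ishikawa, T-47D, LNCaP), and CG dinucleotides numbered 14.7, 32.2 and 19.2 per kb in hubs and 12.2, 29.7 and 16.4 in others. Promoters of at least 2 protein-coding genes lay in 45 Ishikawa (8.12%), 43 T-47D (15.5%) and 350 LNCaP hubs (14.0%), against 1.81%, 8.48% and 4.62% of all anchors, which were narrower.

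Hubs at promoters were joined to promoters more often than hubs elsewhere were. Among the partners of promoter hubs, 30.2% of those of Ishikawa, 62.7% of T-47D and 45.5% of LNCaP held a promoter. Among the partners of hubs without a promoter the shares were 16.3%, 25% and 21.9%. The same held outside hubs, where 34.3%, 65.1% and 52.3% of the partners of anchors with a promoter and 17.0%, 47.1% and 36.5% of those of anchors without one held a promoter. Hubs thus lay below other anchors of the same kind in each list, and over all anchors the shares were 20.4%, 56.3% and 40.4%. Promoter and other hubs had similar partner numbers, with medians of 24 and 23 in Ishikawa and 23 and 24 in T-47D. In T-47D, hubs without a promoter carried more read pairs, with a median of 384 against 283.

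Protein-coding genes with a promoter in a hub numbered 258 of the 11549 with a promoter in any Ishikawa anchor (2.23%), 203 of 9922 in T-47D (2.05%) and 1617 of 11712 in LNCaP (13.8%). Genes that mark the cell of origin were read against these shares. Their lists were drawn up with earlier results of these data known, and no test was made on them. Counts are out of the listed genes that had a promoter in an anchor of the cell line.

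Of 12 prostate genes, all with a promoter in a LNCaP anchor, 11 lay in a LNCaP hub (91.7%), KLK2 and KLK3 in the same hub. The best promoter anchor of the 12 had a median of 42 partners, against 9 over all genes with a LNCaP promoter anchor. HOXB13, the homeobox gene of the prostate lineage, had 46 partners and 3243 read pairs, 1364 of them in a loop of 22.2 kb. FOXA1, the pioneer factor that opens chromatin for hormone receptors, had 48 partners and 6348 read pairs, with 1896 in a loop of 152 kb to the MIPOL1 promoter. The androgen target genes TMPRSS2 and FKBP5 had 38 and 48 and the metalloreductase gene STEAP2 had 50. SLC45A3, an androgen-regulated transporter gene, had 32 with 61.3% of its 2250 read pairs in a single loop of 37.8 kb, and TMEFF2, a transmembrane protein gene of prostate and brain, had 25. ACP3, prostatic acid phosphatase, missed the rule with 19. In Ishikawa none of the 7 prostate genes with a promoter in an anchor was in a hub, and in T-47D 1 of 6, FOXA1, with 27 partners.

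Of 14 luminal breast genes, 10 had a promoter in a T-47D anchor, and 4 of these were in hubs. XBP1, KRT18, TFF1 and TFAP2B had no such anchor. Outside hubs, SPDEF and TFAP2A had 10 partners each, and KRT8 and TFAP2C had 9 each. GATA3, a master regulator of luminal cells, had 31 partners at a median distance of 858 kb, PGR, the progesterone receptor and an estrogen target, had 23, and FOXA1 had 27. TRPS1, a GATA-type repressor of luminal cells, had 37 at its best promoter. The strongest PGR loop (124 read pairs) ran 219 kb to an intergenic hub near TRPC6 that had 33 partners and 1510 read pairs of its own and no anchor under it in the other lists. ESR1, which encodes estrogen receptor α, was a hub in Ishikawa (22 partners, 213 read pairs) and not in T-47D (16 partners) or LNCaP (2). GREB1, an early estrogen target, had 8, 13 and 15 partners in Ishikawa, T-47D and LNCaP. In LNCaP 3 of 11 luminal genes were hubs, FOXA1, SPDEF with 38 partners and the keratin gene KRT8 with 26.

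Of 8 Mullerian and endometrial genes in Ishikawa anchors, MECOM and ESR1 were hubs (25%). MECOM lies in 1 of 3 segments, described below, in which 4.23% of Ishikawa anchors were hubs against 0.160% elsewhere. The best promoter anchor of PAX8, the factor most used to mark Mullerian origin, had 8 partners, and SOX17 had 3. None of 2 such genes was in a hub in T-47D and none of 3 in LNCaP. Of genes that control growth, LNCaP hubs held 5 of 11 (MYC with 74 partners, JUN with 46, ERBB3 with 35, ERBB2 with 34 and FOSL2 with 20). T-47D hubs held 3 of 11, the cyclin gene CCND1 with 22 and the receptor genes ERBB2 and ERBB3 with 20 each. Ishikawa hubs held 2 of 12, ERBB3 with 25 and FGFR2 with 26. ERBB3 also lies in 1 of the 3 segments, that of chromosome 12. Ribosomal protein genes are mostly transcribed in every cell. They lay in hubs in 1 of 60 cases in Ishikawa (1.67%), 2 of 75 in T-47D (2.67%) and 18 of 80 in LNCaP (22.5%). The first 2 shares lay near and the last above the shares over all genes. GAPDH, with 28 partners in LNCaP, was the only hub of GAPDH and ACTB in any list.

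Corepressors and coactivators, through which hormone receptors act on chromatin, were hub genes in 2 of the 9 cases with a promoter in an Ishikawa anchor, in 2 of 10 in T-47D and in 6 of 10 in LNCaP. TBL1XR1 and GSE1 were hub genes in every list. Their best promoter anchors had 22, 38 and 67 partners for TBL1XR1 and 21, 39 and 33 for GSE1 (Ishikawa, T-47D, LNCaP). These were not always the same promoter. The Ishikawa hub of TBL1XR1 overlapped a LNCaP hub with 45 partners and no T-47D hub at its promoter. The GSE1 hub of LNCaP that overlapped those of the other lists had 29. TBL1XR1 lies in the same hub-dense Ishikawa segment of chromosome 3 as MECOM. The LNCaP hubs also held NRIP1 (30), ARID1A (23) and the methyltransferase gene KMT2D (21). The acetyltransferase gene EP300 had 10, 2 and 13 partners.

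In Ishikawa the hub with the most partners was a 48.9 kb anchor at MECOM (chr3:168950026-168998908), which encodes a zinc finger transcription factor. It had 60 partners and 706 read pairs, and 8.78% of these fell in its strongest loop, of 111 kb to another MECOM promoter anchor. The LNCaP anchor at the same place had 8 partners and T-47D had no anchor there. XXYLT1, a xylosyltransferase gene, followed with 59, BMAL2, a paralogue of the clock gene BMAL1, with 55 and MSRB3, a methionine sulfoxide reductase gene, with 52. An intergenic anchor 37.5 kb from KRT80 had 50 partners, and 19 of them held promoters, among them those of the keratin genes KRT5, KRT7 and KRT18. CFAP46 had 50 as well, 23 of which were hubs. MSRB3, CFAP46, ATP13A4 with OPA1 (43), an anchor near SLC38A2 (41) and an anchor near HMGA2 (40) had no anchor under them in T-47D or LNCaP.

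T-47D had its most connected hub inside GSE1, in an intron at chr16:85491053-85508912, with 64 partners and 3766 read pairs. Its strongest loop, 513 read pairs over 146 kb, led to the GSE1 promoter at chr16:85642451-85649005, itself a hub with 39 partners. Under the intronic hub, the Ishikawa anchor had 7 partners and the LNCaP anchor 8. An intronic anchor of CBFA2T3, a transcriptional corepressor gene, had 48. RARA, the retinoic acid receptor α and an estrogen target, had 42, with 24 of its partners at promoters, and an anchor near the luminal keratin gene KRT19 had 40. SAPCD2 (41) and ABCA2 (38) belong to a gene-dense stretch at the end of chromosome 9. T-47D hubs with no anchor under them in the other lists were led by an intergenic anchor 92.8 kb from KCTD3 (38 partners, 973 read pairs), 3 anchors in or near TRPS1 (35, 35 and 32) and the anchor near TRPC6 already named.

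LNCaP hubs were headed by an anchor inside NAALADL2, a gene of the glutamate carboxypeptidase family, at chr3:175189402-175218577. It had 123 partners and 13351 read pairs, and 60 partners were hubs themselves. Anchors in the body of the same gene had 105, 96, 95, 83 and 76 partners, and the NAALADL2 promoter had 74. T-47D had no anchor under 4 of the 6 anchors in the gene body, and the best Ishikawa anchor under any of them had 10 partners. RERE, an atrophin family corepressor gene, followed with 80, then NEDD4L, a ubiquitin ligase gene, with 78. An intergenic anchor 305 kb from POU5F1B had 75 partners and the MYC promoter had 74. The strongest MYC loop (323 read pairs) crossed 721 kb to an anchor near POU5F1B. LUZP2 had 71 partners and an anchor in CDK19 had 70 with 8651 read pairs, and neither had an anchor under it in the other lists.

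**Figure D4:**
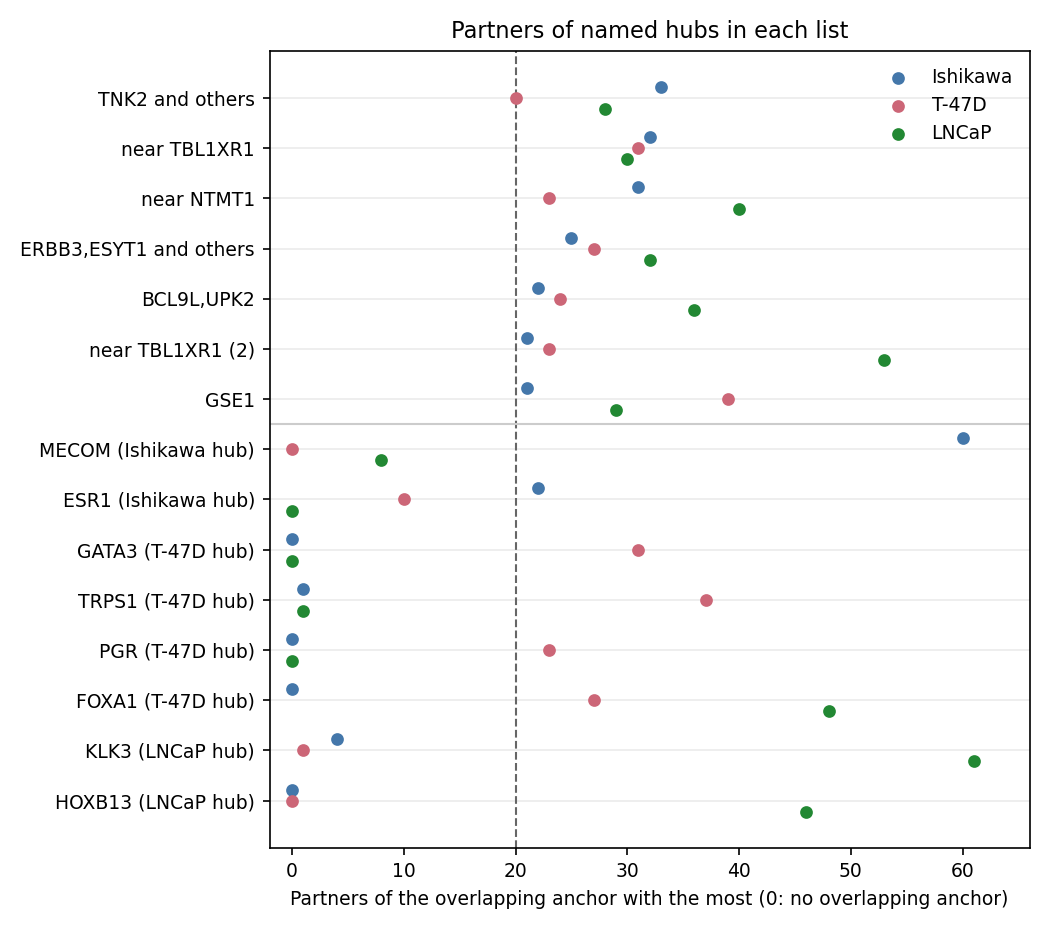
Partners (x axis) in each list of the overlapping anchor with the most, for the 7 loci that were hubs in all 3 lists (above the grey line) and for marker genes named by the list in which they were hubs (below it), with a dashed line at 20 partners and 0 where no anchor overlapped. The 7 loci sit at 20 to 53 in every list, while HOXB13, GATA3 and PGR rise above 20 in a single list each.

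Hubs were joined to other hubs. Ishikawa had 1102 loops from hub to hub, T-47D happened to have 1102 as well and LNCaP had 10584, or 8.57%, 19% and 17.7% of loops with a hub. Only 68 Ishikawa (12.3%), 26 T-47D (9.35%) and 122 LNCaP hubs (4.86%) had no hub among their partners, compared with 92.4%, 88.0% and 52.5% of all anchors. The other hubs formed 75, 36 and 291 linked groups, and groups of 5 or more held 66.2%, 66.9% and 80.6% of the hubs. A hub has many partners by rule, so some linking follows from the choice.

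Some groups were nearly complete, with almost every hub joined to every other. In T-47D the 22 hubs around TRPS1 (chr8:116659609-117468345) made 224 of 231 possible pairs (97.0%), and TRPS1 was the only gene with a promoter in them. At TYRP1, which encodes a melanosome enzyme, 11 hubs made 55 of 55. In the histone gene cluster of chromosome 6, 15 hubs over 1.84 Mb made 101 of 105 (96.2%), and held promoters of 27 protein-coding genes. Reads from such near-identical genes can be misplaced, so these loops are uncertain. Between chr9:139376238 and chr9:140510620, 25 hubs, 23 with a promoter, held 28 promoter genes, NOTCH1 among them.

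In LNCaP the group around MYC held 26 hubs over 1.13 Mb (284 of 325 possible pairs, 87.4%), of which 2 had a promoter. At NRIP1, a hormone receptor corepressor gene, 18 hubs made 136 of 153 pairs (88.9%) with 15826 read pairs, and 1 of them held a promoter. On chromosome 5 between 163935974 and 165356015, 15 hubs made 102 of 105 pairs and none held a promoter. The 77 hubs from NAALADL2 to TBL1XR1 (chr3:173618514-178104771) made 1229 of 2926 pairs (42.0%) with 48200 read pairs, and 5 held a promoter. An equally large group on chromosome 11 (chr11:57085227-67446347) was of another kind, with promoters in 66 of its 77 hubs, 92 promoter genes and 16.4% of possible pairs. In Ishikawa the largest group held 32 hubs on chromosome 17 (18.8% of pairs), and 27 hubs near the end of chromosome 10, with CFAP46, PWWP2B and NKX6-2, made 53.3% of pairs.

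Ishikawa hubs were concentrated on few chromosomes. Chromosome 12 held 35.0% of them, chromosome 10 25.3% and chromosome 3 16.8%, with 6.98%, 6.21% and 7.35% of the anchors. Within these, 3 segments stood apart and were chosen after their values were seen: chr3:166000001-198022430 with 92 hubs, chr10:74000001-135534747 with 139 and chr12:1-73000000 with 192. Together they held 423 hubs, or 76.4%, on 10.8% of the anchors, and 4.23% of their anchors were hubs against 0.160% elsewhere. Anchors also lay closer together there, with a median of 246 within 2 Mb against 141 elsewhere. Promoters lay in 40.0% of the 423 hubs and in 40.5% of the other 131. In T-47D the same segments held 8.27% of hubs on 7.55% of anchors, and in LNCaP 9.45% on 6.51%. The chromosome 3 segment was the exception, since 14.8% of its LNCaP anchors and 3.38% of its T-47D anchors were hubs. T-47D hubs were most frequent on chromosomes 9 and 11 (15.1% each) and 8 (12.2%), and chromosomes 2, 4, 13, 15, 18, 21, 22 and X had none. The part of anchor density in this was not tested.

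**Figure D5:**
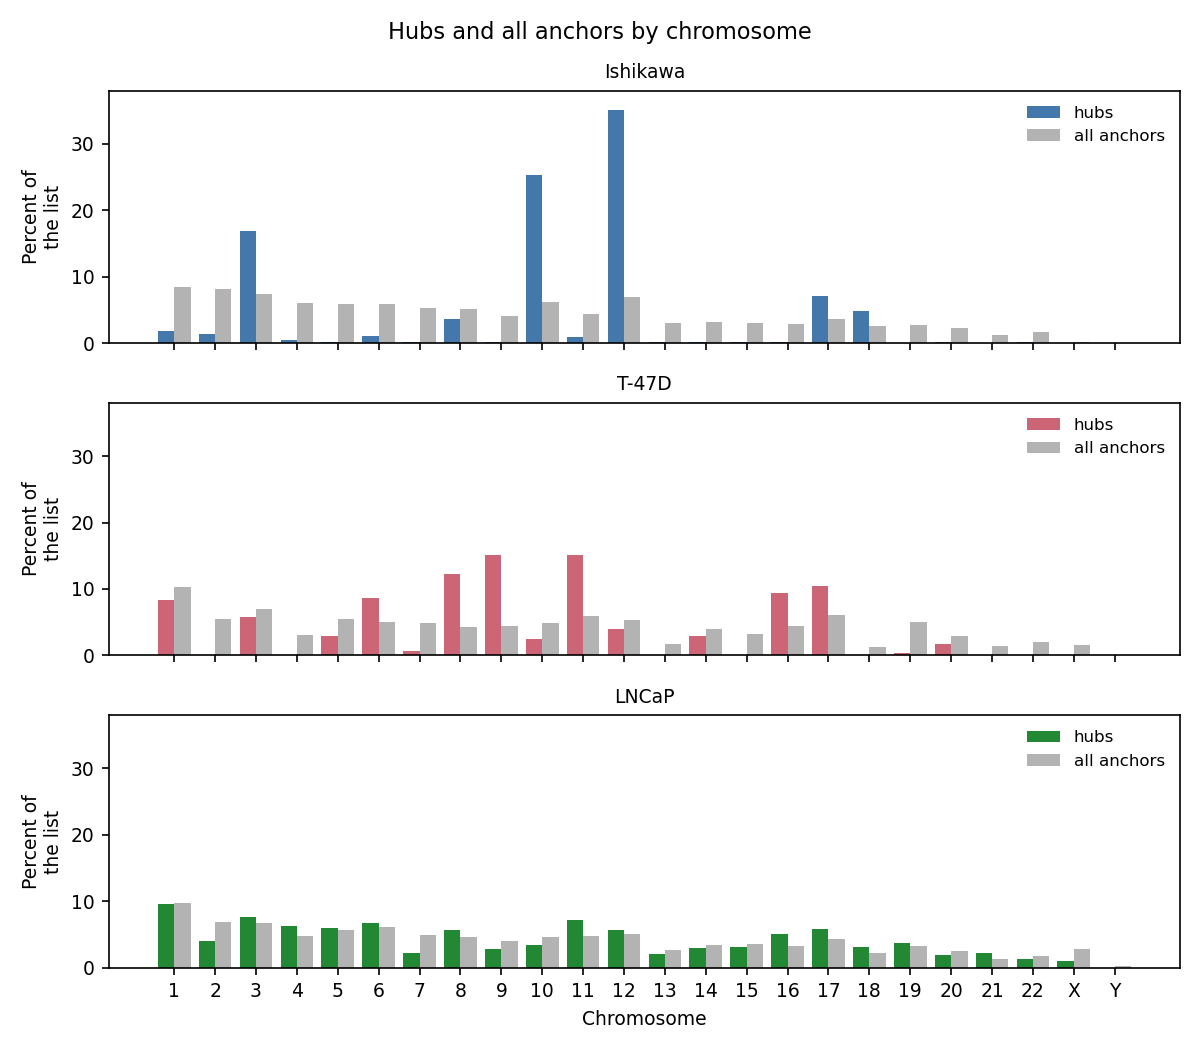
Percent of the hubs (coloured bars) and of all anchors (grey bars) of each list on each chromosome, 1 panel per cell line. Ishikawa hubs pile up on chromosomes 3, 10 and 12 (16.8%, 25.3% and 35.0%), T-47D hubs on 9 and 11, and LNCaP hubs follow the anchors more closely.

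The lists shared few hubs. With an overlap of 1 bp or more, 12 Ishikawa hubs lay on a T-47D hub (2.17%, against 0.195% of all Ishikawa anchors) and 36 on a LNCaP hub (6.50% against 2.13%). Of T-47D hubs, 14 lay on an Ishikawa hub (5.04% against 1.12%) and 98 on a LNCaP hub (35.3% against 8.02%). Of LNCaP hubs, 40 lay on an Ishikawa hub (1.59% against 0.565%) and 91 on a T-47D hub (3.63% against 0.455%). Weighting other anchors to hub widths raised the comparison for Ishikawa hubs on LNCaP hubs to 4.43%, and for T-47D hubs on LNCaP hubs to 8.55%. After thinning, which left 160 LNCaP hubs, 7 of 278 T-47D hubs lay on a LNCaP hub (2.52% against 0.397% of all T-47D anchors) and 7 LNCaP hubs on a T-47D hub (4.38% against 0.739%). No anchor at all of either other list lay under 315 Ishikawa hubs (56.9%), 52 T-47D hubs (18.7%) and 595 LNCaP hubs (23.7%), compared with 78.6%, 24.2% and 49.2% of all anchors.

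Partner numbers in another list come from read pairs the rule did not use. Where several anchors of the other list lay under an anchor, the one with the most partners was taken. A wide anchor can lie over more of them, which raises this number. The rule favours wide anchors, and width went with partner number in every list (Spearman's rho over all anchors 0.303, 0.204 and 0.563), so these numbers, which were not weighted to hub widths, are not free of it. LNCaP anchors under the 201 T-47D hubs that had one had a median of 19 partners, against 8 under other T-47D anchors, and 80.1% of them had 10 or more against 44.2%. T-47D anchors under LNCaP hubs had a median of 6 against 3, and 34.3% had 10 or more against 9.54%. T-47D anchors under Ishikawa hubs had a median of 5 against 4 and 10 or more in 26.5% against 13.3% of cases. Ishikawa anchors under T-47D hubs had a median of 4 against 3 and 10 or more in 19.8% against 11.2%. The medians were 9 against 7 for LNCaP anchors under Ishikawa hubs, with 10 or more in 45.4% against 36.1%, and 3 against 3 for Ishikawa anchors under LNCaP hubs, with 12.7% against 9.05%. The share with 10 or more partners was thus higher under hubs in each of the 6 pairings.

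Genes with a promoter in a hub of both T-47D and LNCaP numbered 127, or 62.6% of the T-47D and 7.85% of the LNCaP hub genes. Ishikawa shared 12 hub genes with T-47D (4.65% and 5.91%) and 46 with LNCaP (17.8% and 2.84%). Of all genes with a promoter in an anchor, hub genes made up 2.23%, 2.05% and 13.8% (Ishikawa, T-47D, LNCaP), so that the overlap of Ishikawa and LNCaP lay near these shares. In all 3 lists 11 genes were in hubs, namely BCL9L, ERBB3, ESYT1, GSE1, NAALADL2, RPL41, TBL1XR1, TNK2, UPK2, ZC3H10 and the unnamed ENSG00000289747. Among them ERBB3 encodes a receptor of the epidermal growth factor receptor family, TBL1XR1 a subunit of the nuclear receptor corepressor complexes, TNK2 a cytosolic tyrosine kinase, UPK2 a urothelial membrane protein and RPL41 a ribosomal protein. For ERBB3, NAALADL2 and TBL1XR1 the Ishikawa and T-47D hubs lay at different start sites and did not overlap.

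Among hubs of 2 lists, T-47D and LNCaP shared a TBL1XR1 promoter other than that of the Ishikawa hub (38 and 67 partners, against 8 in Ishikawa). They also shared ZBTB7B, a zinc finger repressor gene, with 34 in both, and the histone genes H2AC13, H2BC13 and H3C10 (33 and 64). The shared anchor of CFL1 and MUS81, an actin severing factor and a DNA endonuclease gene, had 30 in both. Ishikawa and LNCaP shared an anchor at a NAALADL2 promoter (43 and 74, against 17 in T-47D, whose own NAALADL2 hub lay at another promoter of the gene), CTBP2, a corepressor gene, with 30 and 45, and a stretch at SMIM41 in the keratin region (45 and 29). Ishikawa and T-47D shared HES1, a Notch target gene, with 34 and 27, and intergenic anchors near TBL1XR1 with 42 and 34 and with 28 and 29. LNCaP had 14 or fewer partners at each of these.

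At 7 loci an Ishikawa hub overlapped hubs of both other lists. TNK2 (chr3:195623605-195654537 in Ishikawa) had 33 partners there, 20 for T-47D and 28 for LNCaP. The anchor holding ERBB3, ESYT1, PA2G4, RPL41 and ZC3H10 (chr12:56492655-56514249), which had the most promoters of any Ishikawa hub, had 25, 27 and 32. The T-47D hub with 27 and the LNCaP hub with 32 held ESYT1, RPL41 and ZC3H10 but not ERBB3. The ERBB3 hubs of these 2 lists lay outside the Ishikawa anchor. BCL9L with UPK2 (chr11:118776857-118804278) had 22, 24 and 36, and GSE1 (chr16:85636327-85649326) had 21, 39 and 29. These loci are promoter hubs, and at the ESYT1 locus 17 of 25, 26 of 27 and 26 of 32 partners held a promoter too. The remaining 3 loci lie outside protein-coding genes, and whether they hold lncRNA genes was not examined. An anchor 119 kb from NTMT1 (chr9:132235643-132268324) had 31 partners in Ishikawa, 23 in each of the 2 T-47D anchors under it and 40 in LNCaP. The remaining pair lie 130 kb and 369 kb from TBL1XR1, at chr3:177071514-177079531 with 21, 23 and 53 partners and at chr3:177305772-177323147 with 32, 31 and 30. TBL1XR1 was the only gene with a promoter among the partners of either anchor in each of the 3 lists. No locus was a hub in all 3 lists at a minimum of 5 read pairs per loop, or after thinning.

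The hubs that overlapped between 2 lists also shared partners. A partner counted as shared when it overlapped a partner of the other hub. In the 98 overlapping pairs of T-47D and LNCaP hubs, 1593 of 2412 T-47D partners were shared (66%), and the share ranged from 28.0% to 95.5% between pairs. In the 41 pairs of Ishikawa and LNCaP hubs 434 of 1067 Ishikawa partners were shared (40.7%), and in the 14 pairs of Ishikawa and T-47D hubs 131 of 407 (32.2%). Many unshared partners had no anchor under them in the other list. Of the partners that had one, 81.7%, 82.8% and 87.3% were shared. At the anchors of ESYT1, RPL41 and ZC3H10, 23 of 27 T-47D partners were shared with LNCaP (85.2%). At TNK2, 3 of 33 Ishikawa partners were shared with T-47D (9.09%). The hub at HNRNPUL2 and TTC9C, genes of an RNA-binding protein and a tetratricopeptide protein, had the highest share, 21 of 22 T-47D partners. Neighbouring hubs share partners, and anchors near each other are often joined, so these shares are descriptions.

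The Ishikawa list consists of 4 sorted blocks, and nothing states which sample a block holds. Of the 554 hubs, 550 had partners in all 4 blocks (99.3%), but 136 reached 20 partners within a single block (24.5%). Single blocks gave 44, 1, 42 and 120 of the hubs. Counting only pairs found in at least 2 blocks, 38 hubs remained (6.86%), and 57.9% of them held a promoter. Of the loops with a hub, 48.0% were found in at least 2 blocks, against 32.6% of those without. Hubs were chosen on the sum of the same blocks and their loops hold more read pairs, so nothing is read from this difference. DMSO and E2 samples could not be set against each other.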

How the data were processed

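H3K27ac HiChIP was measured in 7 samples of 3 cell lines. The authors aligned reads to hg19 with HiC-Pro, called loops with hichipper, dropped loops with fewer than 3 reads or an insufficient FDR, and combined the samples of a line. Tool versions are not given in the sources used here. The deposited values are counts of read pairs per loop, not scaled for depth. Deposited starts were shifted by a base to make them 1-based. Both edges lay within 8 bases of a GATC for all Ishikawa and LNCaP anchors and for 19384 of 19386 T-47D anchors.

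Partners were counted per anchor over pairs of different anchors on 1 chromosome, with Ishikawa rows of the same pair added up. The LNCaP list was filtered to spans of 5 kb to 2 Mb and holds no self pairs. Promoters came from start sites of 20176 protein-coding genes of GENCODE (lifted to GRCh37), whereas the study used RefSeq. Shares for other anchors at hub widths were weighted over 10 width bins. Motifs were searched on both strands.

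Named hubs were those with the most partners, the hubs shared between lists, those without an anchor in the other lists, the extremes of width, promoters and read pairs, and marker genes. The members and gene lists were chosen with earlier results of these data known. Scripts were tested on simulated data and used Python 3.11.15, pandas 2.3.3, numpy 2.4.6, scipy 1.17.1 and networkx 3.6.1. No hypothesis test was run. Results that need items withheld for evaluation are not reported here.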

Additional observations from a re-analysis of the deposited data

How the results depend on the processing

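The hub numbers rest on the partner threshold and on weak loops, and values for Ishikawa, T-47D and LNCaP are given in this order. At 15 or more partners there were 1505, 694 and 5016 hubs, at 30 or more 90, 38 and 741. With at least 5 read pairs per loop 63, 72 and 914 remained, and with at least 10 read pairs 5, 11 and 246. Thinning left 19 Ishikawa and 160 LNCaP hubs. Partners within 10 kb of each other counted as 1 left 50, 51 and 792. Spans of 20 kb to 1 Mb left 176 in T-47D, and pairs in at least 2 blocks left 38 in Ishikawa. The 1% of anchors with the most partners were 987 in Ishikawa and 489 in LNCaP. Of 25 values of hub number, 4 stayed within 1.5 times the value given in the report and 21 moved beyond it.

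The share of hubs with a promoter moved by more than its interval in 23 of 34 values. With 1 start site per gene it was 22.0%, 43.5% and 39.1% (all anchors 7.91%, 37.4% and 19.8%), and with lncRNA genes added 49.6%, 62.9% and 57.5% (all anchors 20.7%, 53.9% and 33.3%). At 5 read pairs it was 54.0%, 44.4% and 47.3% (all anchors 17.9%, 52.4% and 32.3%). At 10 read pairs it was 80% of 5 hubs, 36.4% of 11 and 41.1% of 246 (all anchors 20.6%, 54.5% and 37.2%). T-47D hubs lay below all anchors at both, but their intervals (33.5 to 55.9 and 15.2 to 64.6) hold the shares of all anchors. With merged partners it was 28.0%, 64.7% and 48.4% (all anchors 16.6%, 49.1% and 29.4%). After thinning it was 57.9% in Ishikawa (all anchors 18.7%) and 38.8% in LNCaP (37.4%). With pairs in at least 2 blocks it was 57.9% in Ishikawa (all anchors 18.5%). At 30 partners it was 50% in T-47D (all anchors 49.1%) and 47.1% in LNCaP (29.4%). At 15 partners it was 33.8% in Ishikawa (all anchors 16.6%). Limited spans gave 50.6% in T-47D (all anchors 50.5%) and the top 1% gave 47.2% in LNCaP (29.4%).

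Sharing of hubs between lists moved in 46 of 64 values. Shares over all anchors follow in brackets for the settings that changed the hubs, and were not computed for the 2 settings of overlap. At 10 read pairs sharing was 0 for every pair of lists (0.0124% to 1.20% of all anchors). For T-47D hubs on LNCaP hubs it was 47% at 15 partners (all T-47D anchors 14.7%), 13.2% at 30 (2.38%) and 20.8% at 5 read pairs (3.57%). It was 50% with centres within 50 kb and 16.5% with an overlap of 50% of both anchors. Merged partners gave 19.6% (2.56%), thinning 2.52% (0.397%) and the top 1% 14.9% (1.62%). For LNCaP hubs on T-47D hubs it was 6% at 15 partners (all LNCaP anchors 1.15%), 0.675% at 30 (0.0597%) and 1.53% at 5 read pairs (0.113%). Centres within 50 kb gave 7.02% and the stricter overlap 1.83%. Merged partners gave 1.26% (0.103%), the top 1% 5.32% (0.324%), limited spans 2.66% (0.302%) and thinning 4.38% (0.739%). For Ishikawa hubs on LNCaP hubs it was 4.44% at 30 partners (all Ishikawa anchors 0.7%). Pairs in at least 2 blocks gave 15.8% (2.32%), centres within 50 kb 15.7% and the stricter overlap 2.71%. Merged partners gave 4.00% (0.723%), thinning 0 (0.194%) and the top 1% 1.93% (0.493%). For LNCaP hubs on Ishikawa hubs it was 2.67% at 15 partners (all LNCaP anchors 1.39%), 0.540% at 30 (0.145%) and 0.328% at 5 read pairs (0.118%). Pairs in at least 2 blocks gave 0.279% (0.0781%), centres within 50 kb 4.19% and the stricter overlap 0.598%. Merged partners gave 0.253% (0.0597%), thinning 0 (0.0572%) and the top 1% 3.89% (0.932%). For Ishikawa hubs on T-47D hubs it was 5.26% with pairs in at least 2 blocks (all Ishikawa anchors 0.249%) and 0.361% with the stricter overlap. Merged partners gave 4.00% (0.0423%) and thinning 5.26% (0.235%). For T-47D hubs on Ishikawa hubs it was 1.39% at 5 read pairs (all T-47D anchors 0.190%) and 1.44% with pairs in at least 2 blocks (0.134%). The stricter overlap gave 0.719% and thinning 0.719% (0.0671%). The settings for overlap kept the hubs and changed only what counts as shared, whereas the others changed which anchors were hubs. The cause was not tested further.

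Depth differs between the lists, loops under 3 read pairs are not in the lists, and the lists were filtered differently on span. No paired analysis was possible because the lists are pooled, 1 per cell line.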
